A study of Homo sapiens with 4 samples.

Results

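CpG methylation was compared between B3GALT5-knockout (KO, genotype B3GALT5-/-) and wild-type (WT) cells of the established human embryonic stem cell line H9, both kept in the primed state in basal medium. The series holds 4 bisulfite libraries of captured genomic DNA, and the other two came from the naive state, WT cells in 5iLAF medium and KO cells in 2iLAF medium. Each group is 1 library, and the labels do not say whether the KO cells were 1 clone, so an effect of the knockout and any other difference between the 2 primed libraries cannot be told apart. The cytosines compared were all autosomal cytosines with at least 10 reads in both primed libraries, keyed by position and strand, and the level of a cytosine is its methylated reads as a percentage of its reads. This gave 564175 cytosines, or 31.4% of the 1798669 autosomal cytosines listed in both primed libraries, and the series as a whole lists 2827416 positions in at least 1 of its 4 libraries. Of them, 312384 lay in 30486 tiles of 1 kb that held at least 5 cytosines each. All positions are hg19 (GRCh37).

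B3GALT5 is a galactosyltransferase that builds globo-series glycosphingolipids, lipids whose sugar heads include the surface antigens used to recognise primed human stem cells. Methyl groups on CpG cytosines are placed by DNMT3A and DNMT3B, are copied after replication by DNMT1 and are removed through TET enzymes. In primed stem cells most of the genome is highly methylated while CpG-rich promoters are largely free of it, and methylation of such a promoter usually goes with a silent gene. Naive cells are known for a genome with much less methylation. Neighbouring CpGs tend to share their state, and since a read covers several of them their measured levels are also not independent.

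Genes were assigned only where a RefSeq promoter sequence could be placed on hg19 by the spacing of its own CpGs, as described under the processing, and 2392 gene windows could be measured. The 4 promoters below show what the differences look like in sequence, and were chosen after their values had been seen, from windows with a difference past 25 points. Each line gives the 250 bases before the transcript start, 5′ to 3′ on the strand of the gene, from RefSeq (GRCh38.p14), and capitals mark the CpGs with a cytosine measured in both primed libraries. ELAVL4, a neuronal RNA-binding protein, lies at chr1:50513477-50513726 on the plus strand. MCTS2, a retrocopy of MCTS1 known as an imprinted gene, lies at chr20:30134932-30135181 on the plus strand. LTF, which encodes lactotransferrin, lies at chr3:46506396-46506645 on the minus strand. C1GALT1C1L, related to the chaperone of an O-glycan galactosyltransferase, lies at chr2:43903569-43903818 on the minus strand. The motif marked, CG, reads the same on both strands and occurs in 96.1% of the 34961 RefSeq promoter sequences, which are 300 bases long and hold a median of 14.
ELAVL4: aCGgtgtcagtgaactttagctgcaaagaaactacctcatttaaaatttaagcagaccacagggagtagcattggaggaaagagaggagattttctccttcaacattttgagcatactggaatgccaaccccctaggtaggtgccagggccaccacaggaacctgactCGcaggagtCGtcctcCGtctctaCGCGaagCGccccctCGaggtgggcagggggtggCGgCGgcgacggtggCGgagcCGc
MCTS2: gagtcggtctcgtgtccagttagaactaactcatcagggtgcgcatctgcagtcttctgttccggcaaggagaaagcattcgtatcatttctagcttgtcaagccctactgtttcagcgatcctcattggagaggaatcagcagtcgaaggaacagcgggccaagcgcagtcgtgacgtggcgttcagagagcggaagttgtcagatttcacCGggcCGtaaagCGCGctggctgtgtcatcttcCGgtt
LTF: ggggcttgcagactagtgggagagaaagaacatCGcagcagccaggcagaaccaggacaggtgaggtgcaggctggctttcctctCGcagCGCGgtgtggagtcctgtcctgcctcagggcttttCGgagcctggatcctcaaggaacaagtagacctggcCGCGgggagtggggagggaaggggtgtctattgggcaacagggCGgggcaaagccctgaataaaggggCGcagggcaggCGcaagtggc
C1GALT1C1L: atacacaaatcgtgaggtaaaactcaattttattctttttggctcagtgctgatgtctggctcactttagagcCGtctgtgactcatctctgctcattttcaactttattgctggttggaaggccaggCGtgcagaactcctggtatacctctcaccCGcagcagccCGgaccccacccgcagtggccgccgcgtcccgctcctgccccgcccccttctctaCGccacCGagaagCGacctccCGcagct

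In the ELAVL4 sequence the 12 cytosines measured stood at 14.6% ± 12.8 in WT cells and 96.9% ± 9.11 in KO cells (mean ± SD over cytosines). In WT cells they ranged from 3.85 to 50% and in KO cells from 68.4 to 100%, without overlap, and the lowest KO value belonged to the outermost CpG, which was also the highest in WT cells. At the CpG 51 bases before the start, 1 of 26 reads was methylated in the WT library and 15 of 15 in the KO library (adjusted p = 1.92e-06, two-sided Fisher's exact test with Benjamini-Hochberg adjustment over all 564175 cytosines). In MCTS2 the 5 cytosines measured in the sequence shown stood at 8.82% ± 0.738 in WT cells and 73.5% ± 7.83 in KO cells. Each had exactly 1 methylated read in the WT library out of 10 to 12, and 66.7 to 86.4% in the KO library. Cytosines without a methylated read were not listed, so 1 read is the lowest count possible here. The WT level of these MCTS2 cytosines thus sits at that floor, and its small SD reflects only their depths. The 10 cytosines of the LTF sequence stood at 59.8% ± 19.8 in WT cells and 93.8% ± 8.29 in KO cells, and here the libraries overlapped, with WT values up to 90.9% and KO values down to 73.9%. C1GALT1C1L went the other way, from 94.7% ± 6.05 to 35.8% ± 6.30 over 8 cytosines, with WT values of 84.6 to 100% and KO values of 25.9 to 42.9%. At an adjusted p under 0.05 in this test, 11 of the 12 ELAVL4, 1 of the 5 MCTS2, 2 of the 10 LTF and 1 of the 8 C1GALT1C1L cytosines differed. All cytosines measured in these 4 sequences lay on the minus strand of the chromosome, so none of the values was read on the plus strand. SDs here and below are over cytosines, which share reads, and are not an error between replicates.

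Across the autosomes the 2 primed libraries were close. The mean level was 74.8% ± 27.97 in WT cells and 75.7% ± 27.7 in KO cells, and the medians were 85.7 and 86.96%. With all reads pooled, the level was 65.42% in WT (Wilson 95% interval 65.396 to 65.446%, counting error only) and 65.97% in KO cells. Per cytosine the KO level was higher by 0.931 points on average, with a median difference of 0 and an SD of 17.5 points. The KO level was higher at 45.2% of cytosines, lower at 42.3% and equal at 12.6%, and 55.4% of cytosines differed by 10 points or less. The mean difference was positive on all 22 autosomes, lowest on chromosome 18 (0.600 points) and highest on chromosome 1 (1.502 points). Counting error at the depth of these cytosines, a median of 17 reads in WT cells and 18 in KO cells, would by itself give an SD of 11.4 points, or 42.3% of the variance observed. Cytosines kept their class for the most part: 84.1% of those at 80% or above in WT cells and 61.1% of those at 20% or below were in the same class in KO cells, while 712 went from the low to the high class and 393 from the high to the low class.

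The mean shift was positive in every class of cytosine examined, by naive level, CpG density and coverage, and ranged from 0.695 to 1.73 points. Grouped by their level in the WT naive library, which the difference does not use, cytosines were higher in KO primed cells by 1.07 points at 0 to 20%, by 1.22 points at 20 to 40% and by 0.828 points at 80 to 100%. Grouped by CpG density, those with at most 2 listed CpGs within 250 bp were higher by 1.02 points, those with 8 to 15 by 0.695 points and those with 31 or more by 1.73 points. That dense group also had the largest share of cytosines called higher in the test described next among the 5 groups of density, 1.23%, against 0.258% in the sparsest group. Calls lower were 0.306% and 0.154% in these 2 groups. Without the test, the share higher by 25 points or more was 8.32% in the dense and 7.61% in the sparsest group. Calls higher also varied with depth, at 0.306% for 10 to 14 reads and 1.65% for 40 to 99 reads in the shallower library. Deeper cytosines had narrower differences, with an SD of 18.96 points at 10 to 14 reads and 12.03 points at 40 to 99 reads in the shallower library.

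Single cytosines were tested on their methylated and unmethylated reads. Two-sided Fisher's exact tests with Benjamini-Hochberg adjustment called 2989 cytosines higher in KO cells (0.53% of those tested) and 1567 lower (0.278%), where the adjusted p was under 0.05 and the levels were 25 points or more apart. Of the cytosines called higher, 1123 stood at 20% or below in WT cells, and of those called lower 634 stood at 20% or below in KO cells. This test compares 2 libraries, not 2 conditions, and treats reads as independent. The strands of the same CpG varied within a library by 4.32 times (WT) and 4.59 times (KO) the binomial variance. With read counts divided by these factors the same Fisher's exact test called 0 cytosines in each direction (639 higher and 225 lower at an unadjusted p under 0.05). The division leaves few reads at most cytosines, so the adjusted test had little power and its 0 calls decide nothing.

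Differences on the 2 strands of the same CpG went together only weakly. Over the 49137 CpGs measured on both strands, the level on one strand followed that on the other, with a Spearman rho of 0.668 in WT cells and 0.679 in KO cells. The KO-minus-WT differences of the 2 strands were nearly unrelated (Pearson r 0.0261, Spearman rho 0.0222) across the same CpGs, which share their libraries and capture. Among 506 CpGs that were higher in KO cells by at least 50 points on the plus strand, 67 (13.2%) were also higher by 25 points or more on the minus strand, against 7.69% of all these CpGs. Of 398 that were lower by at least 50 points, 38 (9.55%) were also lower by 25 points or more, against 5.87%. Of all cytosines compared, 82.8% lay on the minus strand, so most regions below rest on 1 strand. When tiles were called from minus-strand cytosines alone, 358 were higher and 187 lower, and 57 and 23 of these also held at least 3 plus-strand cytosines. On the plus strand, 40 of the 57 higher tiles were higher too (70.2%, against 53.6% of the 4852 tiles readable on both strands), with a median difference of 4.77 points, and 6 (10.5%) reached 25 points, against 2.08% of all tiles readable on both strands. Of the 23 lower tiles, 10 were lower on the plus strand (43.5%, against 46.1%), their median difference was 1.002 points, and 4 (17.4%) reached 25 points in the same direction, against 1.36%. The reason why the strands part was not tested, and it bears on every region named here.

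**Figure D1:**
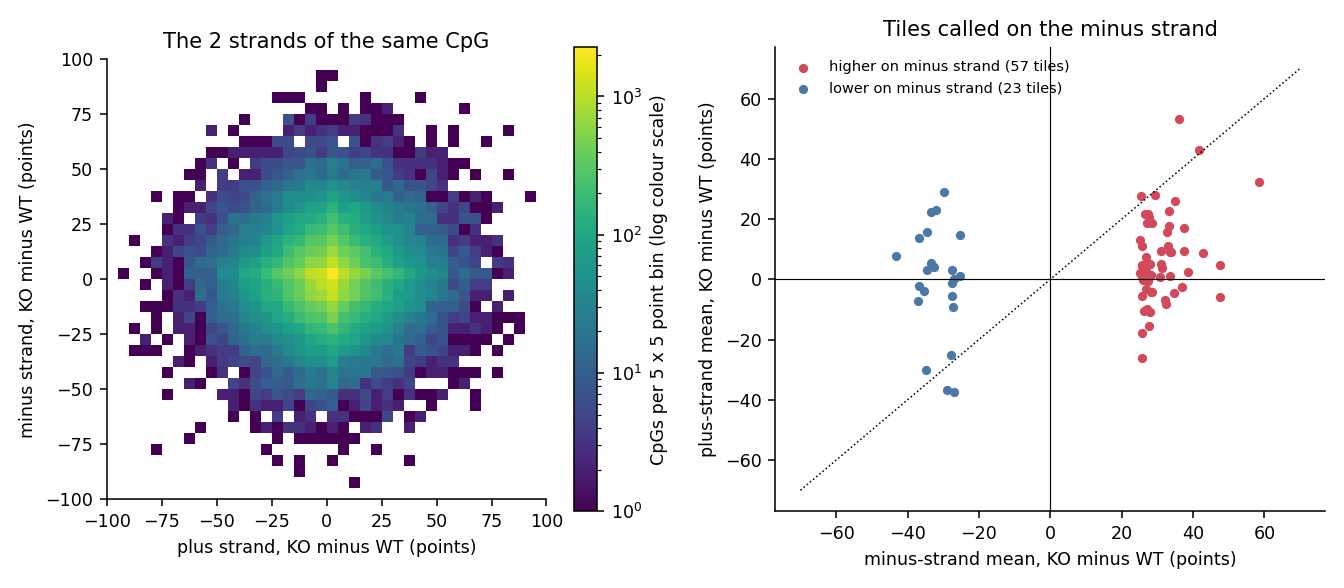
KO-minus-WT difference in percentage points on the plus strand (x) against the minus strand (y) for 49137 CpGs, with colour giving CpGs per bin on a log scale (left), and minus-strand (x) against plus-strand (y) tile means for the 57 tiles higher and 23 tiles lower on the minus strand (right; dotted line, equal difference). The cloud on the left is centred at 0 with no slope to the eye, and on the right 40 of the 57 higher tiles lie above 0 on the plus strand, 6 of them at 25 points or more.

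Regions were called by size. A tile counted as different where its mean differed by at least 25 points and at least 80% of its cytosines moved that way, a rule without a p-value. It was met by 379 tiles higher in KO cells (1.24% of 30486) and 224 lower (0.735%). The median higher tile had 46.2% methylation in WT cells and 82.1% in KO cells, and the median lower tile 76.8% and 42.3%. Differences of 50 points or more were rare, with 33 higher and 7 lower tiles. A change between the extremes, from at most 20% to at least 80%, was seen in 10 higher tiles, and the reverse in 2 lower tiles. The 3 tiles just inside the limit of 25 points were at 25.02 to 25.03 points and the 3 just outside at 24.96 to 24.996 points. Higher tiles outnumbered lower ones on 19 of 22 autosomes, and their share ran from 0.613% of tiles on chromosome 9 to 2.43% on chromosome 6. The called tiles were compact: their cytosines spanned a median of 137 bp in higher and 137.5 bp in lower tiles, against 178 bp in all tiles, and 85.2% and 81.3% of them held cytosines of 1 strand only, against 64.8% of all tiles.

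**Figure D2:**
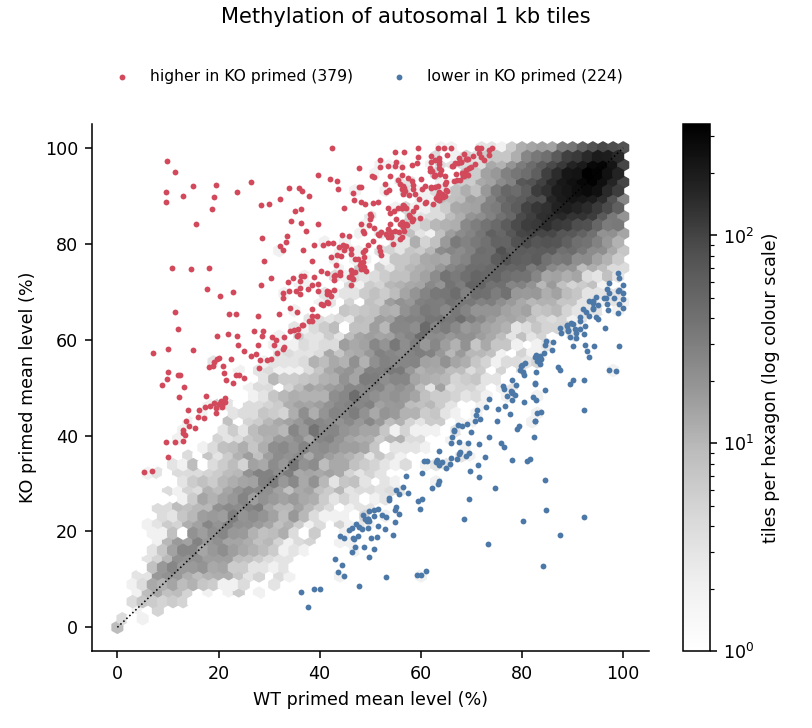
Mean methylation level of each of the 30486 tiles in WT primed (x) and KO primed cells (y), in percent; grey hexagons count tiles on a log colour scale, points are the called tiles and the dotted line marks equal levels. Most tiles lie in the upper right corner near the line, while 379 points stand above and 224 below it.

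The tiles that were highest in KO cells relative to WT cells went from mostly unmethylated to mostly methylated. Among called tiles with at least 10 cytosines, the 10 with the largest increase stood between 9.68 and 26.4% in WT cells and between 74.97 and 97.2% in KO cells, at mean depths of 12.3 to 38.5 reads per cytosine in WT cells and 13.1 to 30.5 in KO cells. All 10 held cytosines of 1 strand only. The first and the third adjoin at MAL, which encodes a membrane proteolipid of myelin, lymphocytes and apical transport. On chromosome 2, 95691001 to 95692000, its 10 cytosines stood at 9.84% ± 5.63 in WT cells and 97.2% ± 3.78 in KO cells, and no WT value exceeded 21.4% and no KO value fell below 90.9%; these cytosines lie within 55 bp. The next tile, from 95692001, stood at 9.68% ± 7.80 and 90.8% ± 13.5 over 28 cytosines spread over 457 bp, of which 27 were called higher singly by Fisher's exact test. All 36 cytosines within 1 kb of the MAL start were higher in KO cells.

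CMTM2, a MARVEL-domain protein of the chemokine-like factor family, had the next gene-assigned tile, on chromosome 16, 66612001 to 66613000, at 18.7% ± 12.1 in WT cells and 87.2% ± 16.7 in KO cells over 18 cytosines. The libraries overlapped slightly, with a WT maximum of 38.7% and a KO minimum of 38.5%. The tile at ELAVL4 stood at 26.4% ± 29.8 and 92.8% ± 14.7 over 16 cytosines, and its difference of 66.4 points shrank to 14.3 points over the cytosines with at least 20 reads. The tile at MCTS2, on chromosome 20, 30135001 to 30136000, stood at 10.7% ± 4.39 and 74.97% ± 9.32 over 18 cytosines. The WT values there ended at 19.05% and the KO values began at 52.9%. The other tiles among the 10 had no placed promoter within 1 kb. On chromosome 1, 148605001 to 148606000 the level was 9.70% ± 2.76 in WT cells and 88.8% ± 7.90 in KO cells over 12 cytosines. On chromosome 6, 45631001 to 45632000 it was 19.4% ± 7.58 and 92.3% ± 6.51 over 13 cytosines. The tile on chromosome 13, 58207001 to 58208000 had 45 cytosines over 819 bp at 23.6% ± 16.8 and 90.9% ± 6.75, with the WT library reaching up to 75% at single cytosines.

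Longer stretches were rare. In 13 places at least 2 adjacent tiles were higher, 28 tiles in all, of which the longest, with 4 tiles, ran from 63283001 to 63287000 on chromosome 2. Its 65 cytosines stood at 10.4% ± 7.29 in WT cells and 74.6% ± 19.7 in KO cells, all 65 were higher and 53 were called singly; the nearest placed promoter, that of EHBP1-AS1, was 7345 bp away. Within it the KO level was uneven: the tile from 63284001 reached 94.9% ± 8.57 and the lowest cytosine of the run stood at 32.4%. Just beyond its end 3 further cytosines stood at 10.07% in WT cells and 84.2% in KO cells. The run on chromosome 13, 58207001 to 58209000 held 84 cytosines, all higher in KO cells, at 27.6% ± 16.4 and 90.1% ± 8.85. A run at HCG4, a non-coding gene of the HLA region, on chromosome 6, 29759001 to 29761000, stood at 47.7% ± 23.9 and 87.7% ± 15.2 over 57 cytosines, 12 of them on the plus strand.

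**Figure D3:**
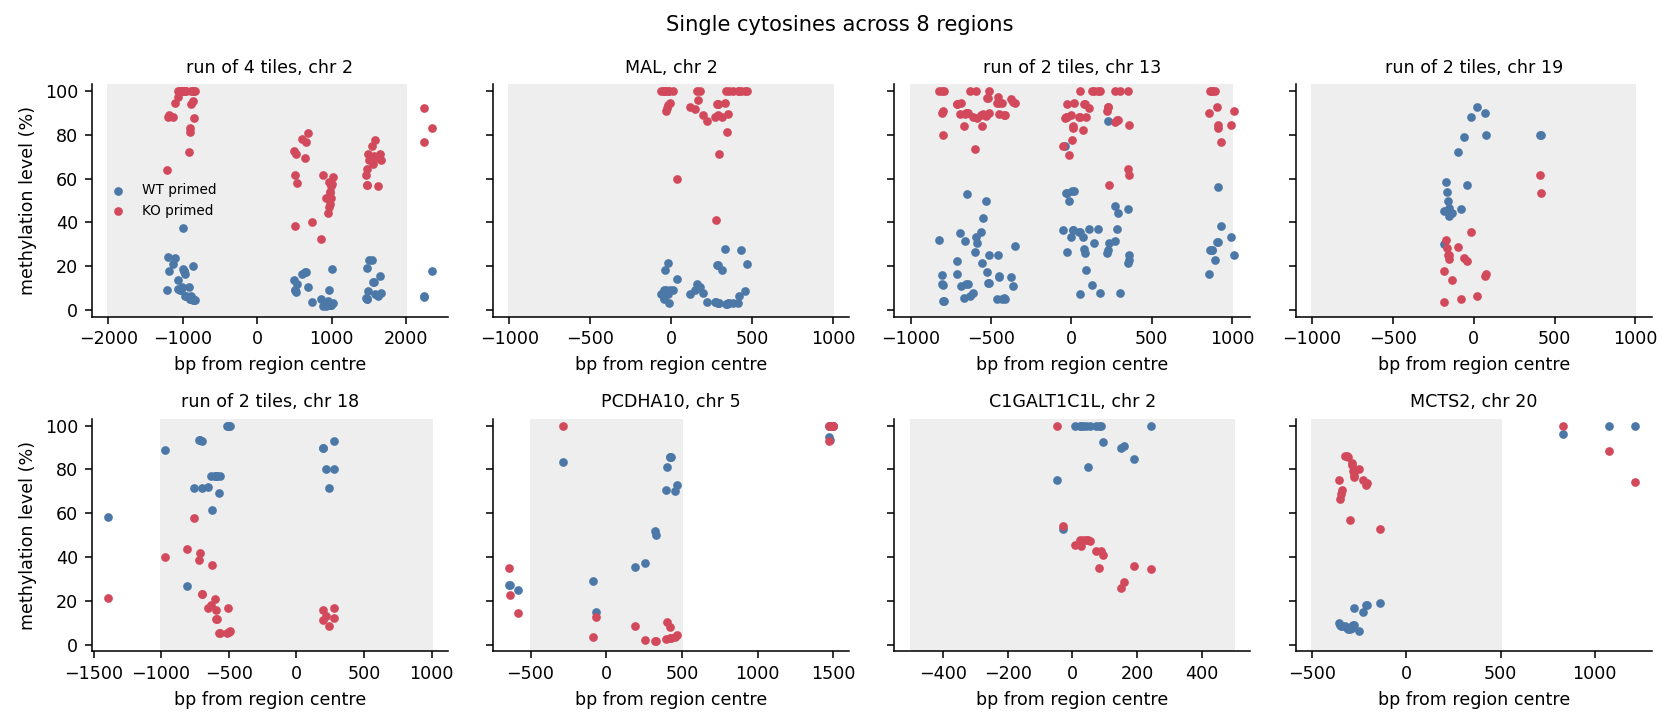
Methylation level in percent (y) of single cytosines in WT primed (blue) and KO primed cells (red) by distance in bp from the centre of 8 regions (x); grey marks the called tiles. Inside the called tiles of MAL and MCTS2 the libraries do not overlap, and in the 4-tile run on chromosome 2 they overlap only between 32.4 and 37.5%.

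The tiles that were lower in KO cells held fewer extreme cases. The 10 with the largest decrease stood between 60 and 92.3% in WT cells and between 10.98 and 45.2% in KO cells, again with cytosines of 1 strand only, at mean depths of 10.9 to 19.9 reads in WT and 13.3 to 36.5 reads in KO cells. The largest decrease was that of the tile on chromosome 19 at 50836001 to 50837000, from 92.3% ± 10.3 to 22.98% ± 6.46 over 13 cytosines, with no WT value below 75% and no KO value above 30.8%. On the same chromosome a run of lower tiles, 50833001 to 50835000, stood at 63.2% ± 19.5 and 24.3% ± 15.1 over 18 cytosines. The tile at LOC105372436, an uncharacterised RNA gene on the same chromosome from 50651001, went from 87.6% ± 14.7 to 19.2% ± 12.2 over 10 cytosines. On chromosome 18 a run of 2 tiles, 70210001 to 70212000, stood at 81.03% ± 15.7 and 20.05% ± 14.2 over 26 cytosines, 25 of them lower.

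PCDHA10 belongs to the clustered protocadherins, neuronal cell-surface proteins whose alternative promoters are known to be regulated by methylation. Its tile, at 140235001 to 140236000 of chromosome 5, had a level of 61.0% ± 24.2 in WT cells and 11.7% ± 25.6 in KO cells over 14 cytosines, 10 of which were called lower; over the cytosines with at least 20 reads the difference was -31.5 points. The tile at C1GALT1C1L stood at 92.2% ± 12.8 and 45.2% ± 15.99 over 17 cytosines, with 2 cytosines going the other way. At ACOT2, a mitochondrial acyl-CoA thioesterase gene with near-identical copies beside it where read placement is uncertain, 10 cytosines within 66 bp stood at 60% ± 5.79 and 10.98% ± 1.18. The tile at DHRS4-AS1, an antisense RNA gene, stood at 82.6% ± 19.6 and 42.9% ± 21.9 over 11 cytosines. Over its cytosines with at least 20 reads in both libraries, a smaller set, the difference was 1.43 points in the other direction.

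Windows of 1 kb on both sides of placed starts gave a view by gene. Of 2392 windows with at least 5 cytosines, 30 were higher (1.25%) and 30 lower (1.25%) by the rule of size, with a median difference over all windows of 0.222 points. The genes named next were chosen after their values had been seen. Beside the genes above, the higher windows included TNFRSF18, a receptor of T cells, at 12.5% ± 8.15 in WT cells and 68.6% ± 9.78 in KO cells over 5 cytosines. The shared window of AGBL4, a carboxypeptidase acting on tubulin, and LOC105378708, an uncharacterised RNA gene, stood at 34.3% ± 25.5 and 84.8% ± 16.4 over 29 cytosines, all of them higher. ZFP42 (REX1), a zinc finger protein used as a pluripotency marker, stood at 28.3% ± 4.84 and 71.3% ± 4.91, over 5 cytosines of which 0 were called singly. The lower windows included CLDN4, a tight junction claudin, at 55.9% ± 25.9 and 22.6% ± 18.5 over 30 cytosines, 28 of them lower. MNS1, a gene of meiosis and sperm flagella, stood at 49.6% ± 20.2 and 22.5% ± 13.2 over 38 cytosines, of which 14 were called lower. Single calls by Fisher's exact test were present in 17 of the 30 higher and 14 of the 30 lower windows. The windows and these calls used the same reads and the same limit of 25 points, so the calls are not separate support. The same holds for single calls in the tiles above. The share of windows with a single call over all 2392 is not given here.

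Among the gene lists, the imprinted genes held the windows and tiles that passed the rule. Of 20 imprinted genes, whose marked alleles normally give levels near the middle, 10 were measured; 1 window was higher, that of MCTS2, and 0 were lower, and the median difference was -0.894 points, from -12.1 points at SNRPN to 64.2 points at MCTS2. Of all 2599 tiles within 1 kb of a placed start, 45 were higher and 40 lower by the rule. How many tiles were measured at the imprinted genes was not counted, so no share is given for them. Single tiles within 1 kb of a start were called at 4 of the imprinted genes. Beside MCTS2 these were GNAS, which encodes a G protein subunit, on chromosome 20, 57415001 to 57416000 (28.7% in WT, 60.7% in KO cells, 23 cytosines), and MEST, a hydrolase-fold gene that shares its tile with MESTIT1, on chromosome 7, 130131001 to 130132000 (13.3% and 40.05%, 7 cytosines). The tile of SNRPN, a splicing protein gene that shares it with SNURF, on chromosome 15, 25201001 to 25202000, was lower (62.3% and 28.98%, 11 cytosines). Over the whole windows SNRPN stood at 33.9% ± 27.1 in WT cells and 21.8% ± 12.9 in KO cells, and MEST at 43.4% ± 21.1 and 42.8% ± 12.03. In windows of 500 bp the SNRPN difference was 8.36 points, that of MEST 17.4 points, against -0.563 points in its window of 1 kb, and that of GNAS -16.3 points, against 11.1 points, so directions at these 3 genes hung on the window. The other lists, with at most 5 members measured in each, had 0 windows and 0 tiles called. Germline genes, which primed cells keep methylated, had 5 of 10 members measured and a median difference of 10 points: TDRD1, of the piRNA pathway, stood at 78.5% ± 15.4 and 90.2% ± 8.91, and DAZL, a germ cell RNA-binding protein, at 95.5% ± 8.75 and 95.2% ± 7.16. The naive state markers measured were DPPA3, DPPA5 and ALPG, with a median difference of 4.36 points; ALPG, an alkaline phosphatase with near-identical copies where read placement is uncertain, stood at 92.2% ± 12.1 and 96.5% ± 8.19. DPPA3 and DPPA5 stood at 89.2% ± 10.2 and 95.8% ± 4.81 in WT cells and 94.7% ± 6.68 and 93.3% ± 8.42 in KO cells. TET2 and ZFP57 were the only members measured among the DNA methylation genes, with differences of -0.606 and 5.07 points. In glycosphingolipid synthesis only B3GALNT1 was measured, at 67.9% ± 18.4 and 70.3% ± 19.2; B3GALT5 itself was not analysed here, so the knockout label was not checked. Of the shared pluripotency genes only CRIPTO (TDGF1), a co-receptor of NODAL, was measured, at 24.1% ± 11.2 and 21.5% ± 7.99, and the lists of neural and developmental transcription factors and primed markers had 0 members measured. Gene families were also counted by symbol. Among 87 measured ZNF genes 0 were higher and 3 lower, ZNF37A, ZNF239 and ZNF69, with a family median of -2.23 points, against 1.25% of all windows in each direction and a median of 0.222 points. Among 23 PCDH genes 0 windows were higher and 1 lower, with a median of -0.585 points. The window of PCDHGA10 had 23.5 points and that of PCDHB5 -22.4 points. A single tile at the PCDHGA10 start, on chromosome 5, 140792001 to 140793000, was called higher (21.3% in WT, 47.8% in KO cells, 18 cytosines). Tiles were not counted by symbol, and others near genes of these prefixes were called, among them higher ones at PCDH10-DT and ZNF354C.

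The naive libraries were not used to choose the regions, and give a second look at the same places, with the limit that genotype and medium differ together there. Of the 200 higher tiles measured in both naive libraries, 120 (60%) were higher in KO naive cells, against 55.1% of all 19748 tiles so measured, and the median naive difference was 2.90 points against 1.28 points. The share was larger where the primed difference was larger: 46 of 90 tiles at 25 to 30 points, 40 of 68 at 30 to 40 points, 17 of 21 at 40 to 50 points and 17 of 21 at 50 points or more. Of 100 lower tiles, 49 were higher in KO naive cells; the direction was that of the primed difference in 26 of 59 tiles of the smallest class and 3 of 4 of the largest. These shares were not tested.

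**Figure D4:**
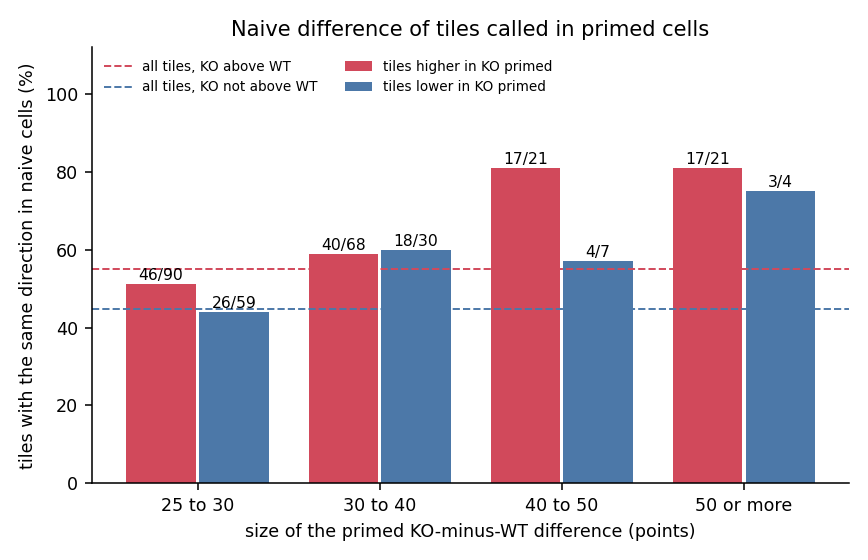
Share of called tiles (y, percent) whose KO-minus-WT difference had the same direction in the naive libraries, by size of the primed difference in points (x), for higher (red) and lower tiles (blue); numbers give tiles of the same direction and tiles measured, and dashed lines give the shares over all tiles. The red bars reach 17 of 21 tiles in both upper classes, above the dashed 55.1%, and the largest blue class holds only 4 tiles.

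Of the 10 tiles with the largest increase, 9 could be measured in both naive libraries and all 9 were higher in KO naive cells, by 3.40 to 37.6 points. Here 1 cytosine measured in both naive libraries was enough, while the shares above required 5. The tile on chromosome 6 from 45631001 had 4 measured cytosines in WT naive cells. MAL led, at 28.0% in WT naive and 64.9% in KO naive cells in its first tile and 13.5% and 34.2% in its second. CMTM2 stood at 51.8% and 77.7%, and ELAVL4 at 25.2% and 42.9%. MCTS2 was nearly equal, at 30.4% and 33.8%. All KO naive levels of these tiles were below their KO primed levels. Of the 10 tiles with the largest decrease, 8 were measured and 7 were lower in KO naive cells. Differences of these 7 ran from -0.256 points at DHRS4-AS1 to -51.5 points on chromosome 19. In WT naive cells the tile on chromosome 2 from 194575001 had 1 measured cytosine, and that on chromosome 1 from 196847001 had 3. The first tile of chromosome 19 stood at 79.5% and 34.3%, and the tile at C1GALT1C1L at 21.9% and 23.7%, while over the cytosines measured in both naive libraries the latter had a difference of -1.34 points.

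**Figure D5:**
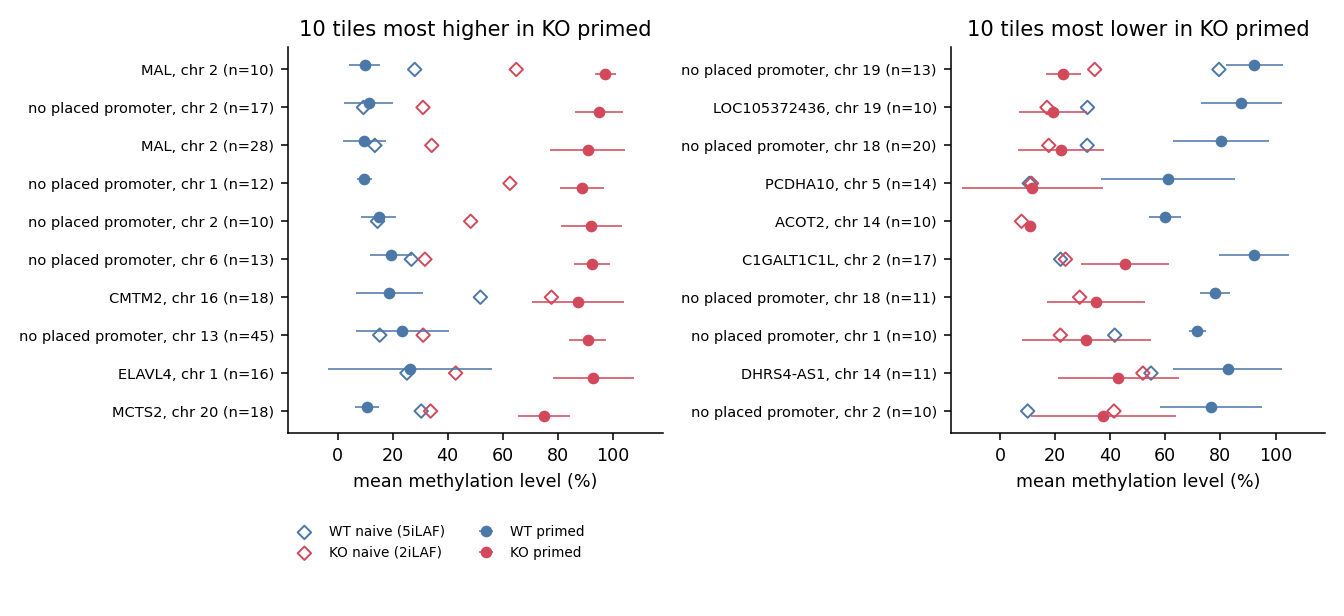
Mean methylation level in percent (x) of the 10 tiles with the largest increase (left) and decrease (right) in the 4 libraries; filled circles are primed, with bars of 1 SD over cytosines, open diamonds are naive, blue is WT and red is KO, and n counts cytosines. The KO naive diamond lies to the right of the WT one in the 9 higher tiles where both exist, and the WT naive diamond is missing for the tile on chromosome 1 without a placed promoter and for 2 of the lower tiles.

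A cytosine appeared in a table only with at least 1 methylated read, so fully unmethylated positions were not listed. At 10 reads or more, 84670 cytosines were listed only in the KO library, 13247 of them at 50% or above, and 57857 only in the WT library, 6486 of them at 50% or above. For part of these the reads on the other strand showed coverage without a methylated read: 3571 in WT cells, of which 918 stood at 25% or above in KO cells, and 2761 in KO cells, of which 589 stood at 25% or above in WT cells. With unlisted cytosines entered at 0 from the depth of a neighbour, 415 tiles were higher and 242 lower, and 367 and 208 of them were called without this step too. Tiles listed in only 1 primed library, with at least 5 cytosines at 10 or more reads and a mean of at least 50%, numbered 34 for KO and 14 for WT cells, and all of these were listed in both naive libraries. Whether the other primed library had reads in these tiles was not checked, so absent methylation and absent reads cannot be told apart. The KO set ranged from 71.8 to 100% and included tiles at REPIN1-AS1 (97.7% over 17 cytosines) and TSPEAR-AS2 (98.3% over 6 cytosines), both antisense RNA genes.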

How the data were processed

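Libraries were made with a methylation capture kit, with 99% conversion from spiked-in phage DNA, per the labels' protocols. Positions are on hg19 (GRCh37), per the submitters' processing notes (aligner, caller and duplicate handling: not given in the sources used here). Per the file headers, the authors deposited raw read counts per cytosine and strand and a methylation level as a fraction. The tables hold 2111617 and 2205933 rows for primed WT and KO cells, with a median of 7 and 8 reads, and 2020444 and 2342243 rows for the naive libraries, with 8 and 13 reads. No row has 0 methylated reads, which raises low levels. PCR copies were not told apart, so intervals and tests cover counting error only. The members, lists and thresholds were chosen with earlier results of these data known. Levels were recomputed from counts, and tests used scipy 1.17.1 (Python 3.11.15); they were tested on simulated data. The text names the 10 tiles with the largest increase and the 10 with the largest decrease among called tiles with at least 10 cytosines, runs of at least 2 adjacent called tiles (a selection), members of the gene lists and tiles listed in 1 primed library.

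Gene lists had been planned only with an hg19 annotation, which was not used here. After the data were seen, RefSeq promoters (GRCh38.p14, 34961 sequences of 300 bases, none for chromosome 8) were placed on hg19 by their CpG spacing against listed CpGs of their chromosome: at least 5 matches, 0 listed CpGs off the pattern, and the RefSeq distance to an adjacent promoter placed by at least 8 matches and a lead of 4. The first minimum was 8 matches, widened to 5 after its yield was seen. List members under an older symbol (3 of them) were matched through RefSeq synonyms. This placed 7575 sequences of 6614 genes; it favours promoters with methylated CpGs, and no coordinate was converted. Before that distance was required, 92.1% of the sequences placed by 8 matches had it. The promoter windows, the plus-strand reading of minus-strand tiles, the naive values by size and the check of unlisted cytosines by the other strand were also added after seeing the data. Alternatives were coverage minimums of 5 and 20 reads, at most 100 reads, pooled reads, summed or single strands, filling in, all 4 libraries, 50 points, 10 cytosines, shifted tiles, 10 drawn reads and scaled reads.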

Additional observations from a re-analysis of the deposited data

Results flagged for a closer look

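The run on chromosome 5, 172672001 to 172674000, had a KO-minus-WT difference above 0 in the primed and below 0 in the naive state. Its 23 cytosines stood at 20.9% in WT primed and 52.2% in KO primed cells, higher by 31.3 points, while over the cytosines measured in both naive libraries the KO-minus-WT difference was -3.72 points. The WT naive mean was 45.9% ± 34.6 over 14 cytosines and the KO naive mean 37.8% ± 21.7 over 23 (SD over cytosines), so the naive difference is small beside that spread. Its 2 tiles parted in the naive libraries: the first went from 13.4% in WT cells to 19.7% in KO cells and the second from 70.2% to 59.02%. The difference between the states was not tested, and genotype and medium differed together in the naive libraries. Over the cytosines measured in both naive libraries, this run was the only one of the 13 higher runs without a higher KO value. By the mean of each naive library, KO cells were also lower in the runs on chromosome 6 from 170589001 (WT 55.7%, KO 51.6%) and chromosome 7 from 121956001 (WT 51.7%, KO 51.5%).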

How the results depend on the processing

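The mean difference kept its direction under every alternative run: 0.889 points at 5 reads, 0.554 with reads pooled, 0.886 with strands summed and 1.04 over cytosines with 10 reads in all 4 libraries. Tiles numbered 1007 higher and 638 lower at 5 reads, 57 and 23 at 20 reads and 234 and 115 over all 4 libraries. They numbered 33 and 7 at 50 points and 107 and 54 with at least 10 cytosines. These counts follow in part from the number of tiles tested (66945 at 5 reads, 7210 at 20 reads, 19748 over all 4 libraries, 9831 with at least 10 cytosines). The share of tiles called also fell as the coverage minimum rose. Higher tiles were 1.504% of those tested at 5 reads, 1.24% at 10 reads and 0.791% at 20 reads. Lower tiles were 0.953%, 0.735% and 0.319%. The cause of this fall was not tested. At 20 reads 48 of the 379 higher and 17 of the 224 lower tiles could still be measured; all of these kept their direction, and 30 and 11 were still called. By Fisher's exact test with Benjamini-Hochberg adjustment, 921 cytosines were lower at 5 reads, 1990 higher at 20 reads, 1977 higher and 1028 lower at 50 points, 0 and 0 with 10 reads drawn per cytosine (8888 and 6291 at an unadjusted p under 0.05), and 0 and 0 with reads scaled by the variance between strands (639 and 225 unadjusted). With at most 100 reads the calls were 2713 higher and 1421 lower. Promoter windows at 20 reads were 8 higher and 8 lower of 671. Named tiles were judged by 1 SD, the WT and KO SDs over cytosines combined as the root of their summed squares, which is a wide limit. Tiles with no cytosine left under an alternative were not counted, and the limit of at most 100 reads changed no tile value. Of 147 values of the 20 named tiles under 8 alternatives, 143 moved by no more than that SD. The exceptions were the tile on chromosome 6 from 45631001 (62.04 points at 5 reads), the ELAVL4 tile (14.3 points at 20 reads), the tile on chromosome 1 from 196847001 (-12.2 points over all 4 libraries) and, turned in direction, the DHRS4-AS1 tile (1.43 points at 20 reads); the cause was not tested. Within 1 SD, but by over 1.5 times, moved the tile on chromosome 2 from 194575001 (-24.2 points at 5 reads and -24.6 with strands summed, short of 25 points, against -39.01) and the PCDHA10 tile (-31.5 points at 20 reads, against -49.2). No paired analysis was possible because each group is 1 library without a replicate number. At 10 reads per cytosine no difference passed the adjustment. So few reads, drawn or scaled, leave the adjusted test little power, so these counts of 0 decide nothing.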

Other observations

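Chromosome X lay outside the autosomal comparison. Its 23454 cytosines with at least 10 reads in both primed libraries stood at 59.8% in WT cells and 60.4% in KO cells, higher by 0.644 points. The tile calls numbered 65 of 1332 for higher (4.88%) and 51 for lower (3.83%, Wilson 95% interval 2.92 to 4.999%), against 1.24% and 0.735% of the autosomal tiles. These shares were not tested between conditions.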
